A study of Mus musculus with 4 samples.

Results

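Cytotoxic lymphocytes carry a small set of transcripts that code for their killing apparatus, and 10 of these were followed in the small intestine (SI) after irradiation. They were Gzma, Gzmb, Gzmk, Prf1, Nkg7, Fasl, Klrk1, Klrd1, Eomes and Tbx21, taken by gene name from the 56748 genes of the deposited count table, and each name matched 1 row. The table held 2 libraries from the SI of p53+/+ mice (WT in the labels) and 2 from p53-/- mice, all exposed to 12 Gy total-body irradiation (TBI) from a Cs-137 source and sampled at 1 day post-TBI. The mice of the study were 8 to 12 weeks old, matched for age and sex, and bought as WT and as p53-deficient animals, so that the p53-/- mice lacked p53 in lymphocytes as well as in the epithelium. Unirradiated mice were not analysed here, so a gain in p53-/- and a loss in p53+/+ cannot be told apart. The labels number the libraries as replicates without naming the mice, so the p-values measure only the spread between these libraries. The libraries are called by the numbers in the table, 7 and 8 for p53+/+ and 9 and 10 for p53-/-. The comparison asks how cytotoxic transcripts stood in the irradiated SI with and without p53.

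CD8+ T cells, natural killer (NK) cells and many intraepithelial lymphocytes of the gut kill by releasing granules at the contact with a target cell. Perforin opens the target membrane, granzymes enter and cleave proteins inside, and Fas ligand can trigger death from outside. Receptors such as NKG2D and the CD94 dimers tell the lymphocyte which cell to attack, and the T-box factors T-bet and Eomes are known to drive the expression of the granule genes.

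The libraries held 15005479 to 22173164 counts. The unit of level is CPM, in which TMM scaling brings each library's counts to a common total. Fold changes are p53-/- over p53+/+ from edgeR's quasi-likelihood test fitted on 16094 genes with enough counts, two-sided, with Benjamini-Hochberg adjustment and a threshold of 0.05. Trp53, the targeted gene, was at 57.7 and 47.1 CPM in p53+/+ against 19.8 and 22.5 CPM in p53-/-. The epithelial marker Epcam was between 2220 and 4180 CPM in every library, so that the labelled tissue was present in each. The 18S ribosomal RNA gene Rn18s-rs5 took 0.296% and 0.473% of the counts in p53+/+ and 0.863% and 4.59% in p53-/-. Library 10 stood apart from library 9 by its B cell transcripts, whose summed level was 550.0 against 26.5 CPM. In bulk tissue, fewer cytotoxic cells and less RNA per cell cannot be told apart.

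Of the granzyme genes, Gzma and Gzmb were higher in the p53-/- SI. Gzma encodes granzyme A, a tryptase that cleaves after basic residues. It was at 4.58 and 8.05 CPM in p53+/+ libraries 7 and 8, and at 66.0 and 83.2 CPM in p53-/- libraries 9 and 10, from 74, 124, 1505 and 1673 counts. The groups did not overlap, and the lower p53-/- library was far above the higher p53+/+ library. The log2 fold change was 3.56 (standard error, SE, 0.320 and edgeR adjusted p = 0.0296), an 11.8-fold difference. Gzmb encodes granzyme B, which cleaves after aspartate and activates caspases in the target. It was at 2.66 and 4.67 CPM in p53+/+ against 30.2 and 40.3 CPM in p53-/-. Its order across the libraries was that of Gzma, and its groups did not overlap either. The log2 fold change was 3.27 (SE 0.363 and edgeR adjusted p = 0.0453), a 9.61-fold difference.

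Gzmk encodes granzyme K, another tryptase, known from memory-like CD8+ T cells. It had 0 and 3 counts in p53+/+ against 16 and 31 in p53-/-, that is 0.701 and 1.54 CPM in the latter. The ratio of summed counts was 11.5, with an exact 95% interval of 3.71 to 57.9 that covers counting error only. Its log2 fold change was 3.46 (SE 1.17 and edgeR adjusted p = 0.224), which did not pass the threshold. Among the reads of the 3 granzymes, Gzma took 63.2% and 62.3% in p53+/+ against 68.1% and 66.5% in p53-/-. The exact 95% binomial intervals of the p53+/+ libraries, 53.8 to 72.0% and 55.2 to 69.1%, contained the values of both p53-/- libraries. Gzmk took at most 1.51% in any library.

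**Figure D1:**
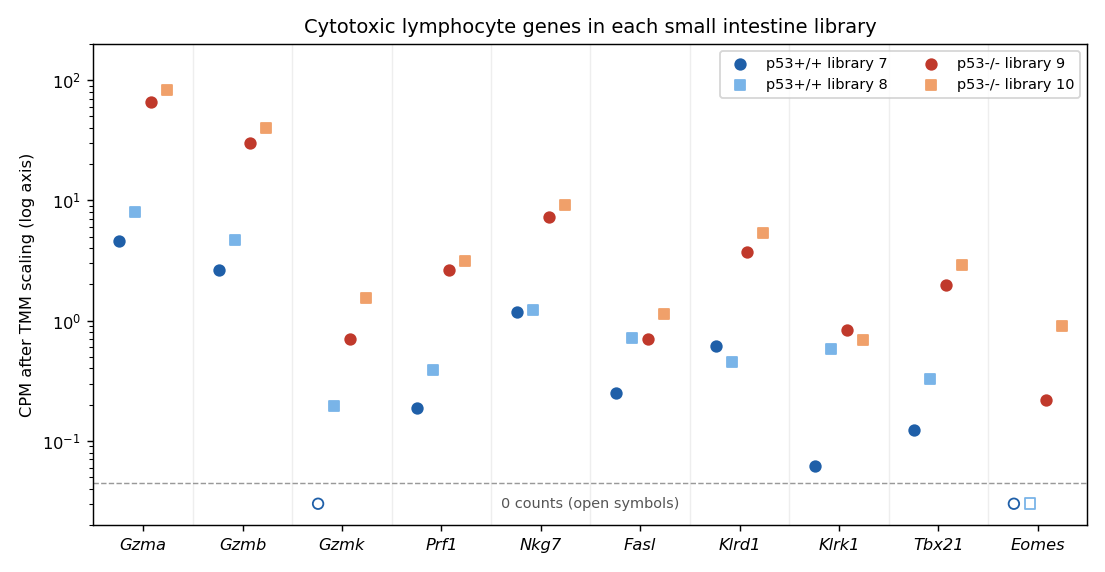
Level of each of the 10 cytotoxic genes in CPM after TMM scaling, on a log axis, with 1 point per library and open symbols below the dashed line for 0 counts. For every gene but Fasl both p53-/- points lie above both p53+/+ points.

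Among the other killing genes, Prf1 and Nkg7 lay higher in both p53-/- libraries without passing the threshold, and Fasl overlapped between genotypes. Prf1 encodes perforin, the pore-forming protein. It was at 0.186 and 0.389 CPM in p53+/+ and at 2.63 and 3.13 CPM in p53-/-, from 3, 6, 60 and 63 counts. The p53-/- libraries lay close together, and the log2 fold change was 3.30 (SE 0.616 and edgeR adjusted p = 0.1). Nkg7 encodes a membrane protein of cytotoxic granules. It was at 1.18 and 1.23 CPM in p53+/+ and at 7.28 and 9.10 CPM in p53-/-, with a log2 fold change of 2.76 (SE 0.405 and edgeR adjusted p = 0.0626). Its p53+/+ libraries were the closest pair among the genes detected in both, 0.07 apart on the log2 scale. Fasl encodes Fas ligand. It was at 0.248 and 0.714 CPM in p53+/+ and at 0.701 and 1.14 CPM in p53-/-, so that library 8 lay just above library 9. The log2 fold change was 0.93 (SE 0.757 and edgeR adjusted p = 0.592). The ratio of its summed counts was 1.91, with a counting interval of 1.03 to 3.73, below the interval of 10.2 to 13.7 for Gzma.

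Of the receptors, Klrd1 resembled the granule genes in size, and Klrk1 had a smaller fold change that rests on few counts. Their ratios of summed counts had counting intervals of 5.08 to 14.6 and 1.17 to 5.52, which overlap. Klrd1 encodes CD94, which pairs with NKG2 proteins to read MHC class I. It was at 0.619 and 0.454 CPM in p53+/+ and at 3.73 and 5.37 CPM in p53-/-. The log2 fold change was 3.07 (SE 0.524 and edgeR adjusted p = 0.0856). Klrk1 encodes NKG2D, which binds stress-induced ligands. It had 1 and 9 counts in p53+/+ and 19 and 14 in p53-/-, or 0.0619, 0.584, 0.833 and 0.696 CPM. The groups did not overlap, but the p53+/+ libraries differed from each other by 3.24 on the log2 scale, more than the log2 fold change of 1.24 (SE 0.981 and edgeR adjusted p = 0.582).

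Both T-box factor genes had few counts in the p53+/+ SI. Tbx21 encodes T-bet, the factor of type 1 effector lymphocytes. It was at 0.124 and 0.324 CPM in p53+/+ and at 1.97 and 2.93 CPM in p53-/-, from 2, 5, 45 and 59 counts, with a log2 fold change of 3.42 (SE 0.700 and edgeR adjusted p = 0.110). Eomes, which encodes the related factor Eomesodermin, had 0 counts in both p53+/+ libraries, against 5 and 18 in p53-/-. It had too few counts for the test. Against 3 counts in each p53+/+ library, the mean of its p53-/- libraries was at least 2.93-fold higher. This rests on library 10 at 0.895 CPM. Library 9, at 0.219 CPM, was close to the 0.186 and 0.195 CPM that 3 counts make in libraries 7 and 8. In the GENCODE M21 annotation an antisense gene shares exon bases with Eomes, and whether the reads were counted by strand is not stated. Tbx21 reads outnumbered Eomes reads by 9 to 1 in library 9 and by 3.28 to 1 in library 10.

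In all, 2 of the 10 genes passed the threshold, Gzma and Gzmb, both higher, against 0.298% of all genes tested called higher and 0.193% called lower. Of the 10, 9 had enough counts to be tested, and Gzmk, Prf1 and Tbx21 reached this only through the p53-/- libraries, where they were high. Fasl, Klrk1 and Klrd1 had enough counts in 1 p53+/+ library and needed a p53-/- library as well. Only Gzma, Gzmb and Nkg7 had enough in both p53+/+ libraries. The comparisons with all genes below are therefore a description. Without adjustment, 7 had a p under 0.05 in edgeR's quasi-likelihood test, all higher, where 10% of all genes did so in that direction and 7.92% in the other. For 9 of the 10 the genotypes did not overlap, with p53-/- the higher, and 8 of these were tested, where 26.4% of all genes tested showed the same order. With DESeq2 6 passed, Gzma, Gzmb, Prf1, Nkg7, Klrd1 and Tbx21, against 5.15% of all genes called higher and 4.18% called lower, and Gzmk and Klrk1 had no adjusted p. The likelihood ratio test of edgeR called 7, against 5.18% of all genes called higher. Over the 9 genes tested the median log2 fold change was 3.27, and over all genes tested it was -0.01. The number of calls depended on single libraries, over all genes as over these. Without p53-/- library 10, edgeR's quasi-likelihood test called 0 genes of the whole table (1201 with an unadjusted p under 0.05) and so 0 of these 9 (6 with an unadjusted p under 0.05), with an adjusted p of 0.306 for Gzma and 0.359 for Gzmb. Without p53-/- library 9, where 0.452% of all genes were called higher, Gzma kept the call (edgeR adjusted p = 0.0385) and Gzmb lost it (edgeR adjusted p = 0.0655). Without p53+/+ library 7 there were 4 calls, with Nkg7 and Klrd1 added, against 1.87% of all genes called higher. Without p53+/+ library 8 there were 6, with Prf1 and Tbx21 added as well, against 3.98% of all genes.

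**Figure D2:**
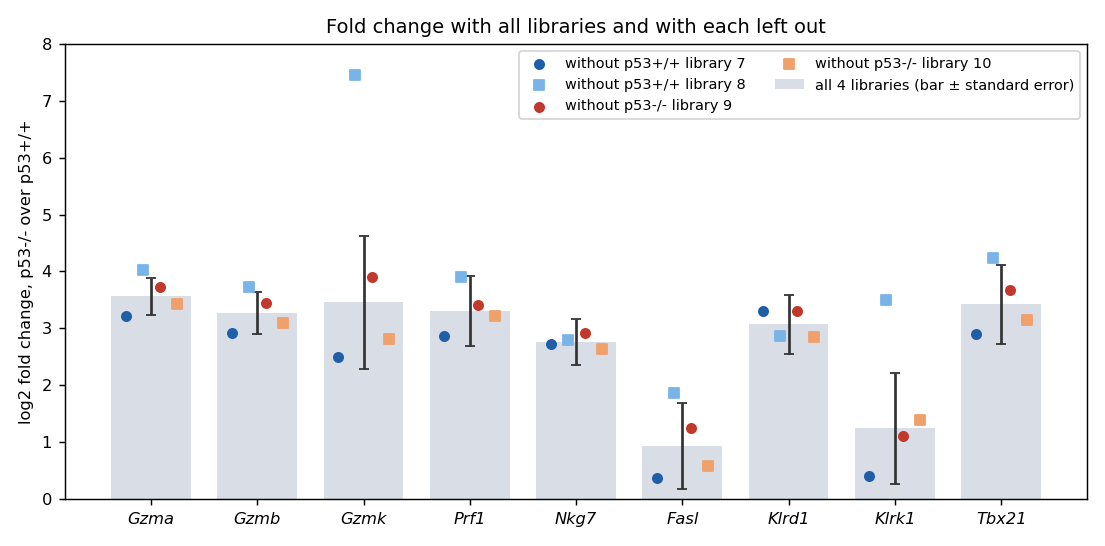
Log2 fold change of the 9 genes tested, p53-/- over p53+/+, as bars with standard errors for all 4 libraries and as points with each library left out. The bars of Gzma, Gzmb, Prf1, Nkg7, Klrd1 and Tbx21 lie between 2.76 and 3.56 and those of Fasl and Klrk1 at 0.93 and 1.24; the point of Gzmk at 7.46 compares with library 7 alone, where it had 0 counts, and is set by the prior count.

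With any 1 library left out, fold changes on the log2 scale ranged between 3.22 and 4.02 for Gzma, 2.92 and 3.72 for Gzmb, 2.64 and 2.91 for Nkg7, and 2.84 and 3.31 for Klrd1. The range was wider for genes of few counts, between 0.37 and 1.86 for Fasl and between 0.40 and 3.49 for Klrk1. The lowest values of both came without library 7 and the highest without library 8. Library 8 was above library 7 for all but Klrd1 of the 8 genes detected in both, by 0.81 on the log2 scale for Gzma and Gzmb. Library 10 was above library 9 for all but Klrk1 of the 10, by 0.34 for Gzma and 0.42 for Gzmb.

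Levels of different genes were compared as RPKM, CPM per kilobase of exon, with lengths from the GENCODE M21 annotation. In the p53-/- SI the order was Gzma at 74.1 ± 12.1, Gzmb at 24.6 ± 4.99, Nkg7 at 8.96 ± 1.41 and Klrd1 at 3.55 ± 0.909 RPKM (SD, n = 2). The libraries of neighbouring genes in this part of the order did not overlap, and each p53+/+ library had the same order. Below them came Prf1 at 1.12 ± 0.138, Tbx21 at 0.986 ± 0.274 and Gzmk at 0.808 ± 0.428 RPKM, whose libraries overlapped from one gene to the next. Fasl at 0.476 ± 0.162 overlapped with Gzmk, and Eomes at 0.134 ± 0.115 with Klrk1 at 0.106 ± 0.0134 RPKM. The exons of Klrk1 add up to 7183 bases over its isoforms, the longest of the 10 genes, which lowers its value if a shorter isoform was expressed. Prf1 reads were few beside those of Gzma, with 20.7 to 26.6 Gzma reads for each Prf1 read over the 4 libraries, not corrected for length. Gzmk had fewer reads than Prf1 in every library.

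To see how the cytotoxic genes stood beside T cell RNA as such, their reads were set against those of Cd3d, Cd3e and Cd3g, which encode invariant chains of the T cell receptor complex. These 3 genes had 41 and 51 counts in p53+/+ against 456 and 714 in p53-/-, or 2.54, 3.31, 20 and 35.5 CPM. Per 100 such reads there were 180 and 243 Gzma reads in p53+/+ and 330.0 and 234 in p53-/-, so that library 8 lay above library 10. For Gzmb there were 105 and 141 in p53+/+ and 151 and 114 in p53-/-, which overlap as well. Prf1 stood at 7.32, 11.8, 13.2 and 8.82, and Tbx21 at 4.88, 9.80, 9.87 and 8.26, in libraries 7 to 10. In these 4 genes the genotypes overlapped on this scale, although on the CPM scale each was higher in both p53-/- libraries. In each of the 4, library 9 lay above both p53+/+ libraries, by little for Tbx21, and the overlap came from library 10. The Cd3 reads are not limited to CD8+ cells. In libraries 9 and 10 Cd4 was at 9.47 and 24.8 CPM and Cd8a at 19.9 and 19.8 CPM. Per Cd8a read there were 2.96 and 2.34 Gzma reads in p53+/+ and 3.32 and 4.2 in p53-/-, which do not overlap. This ratio to Cd8a was taken for Gzma only, and Cd8a had just 25 and 53 counts in p53+/+.

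Klrd1 stood at 24.4 and 13.7 against 18.6 and 15.1, which overlap, and Nkg7 at 46.3 and 37.3 against 36.4 and 25.6, where both p53-/- libraries were the lower. The same order held for Fasl, at 9.76 and 21.6 in p53+/+ and at 3.51 and 3.22 in p53-/-. As a share of Fasl and Cd3 reads together, it was 8.89% (exact 95% binomial interval 2.48 to 21.2%) and 17.7% (9.20 to 29.5%) in p53+/+, and 3.39% (1.95 to 5.45%) and 3.12% (1.99 to 4.65%) in p53-/-. The interval of library 8 lay above those of both p53-/- libraries, and that of library 7 overlapped them. Klrk1 stood at 2.44 and 17.6 in p53+/+ and 4.17 and 1.96 in p53-/-, where the genotypes overlap. On the log2 scale with 0.5 CPM added, the difference between genotypes was 0.82 for Gzma and 0.45 for Gzmb, with a spread within genotypes of 0.34 and 0.30, and -2.12 for Fasl with a spread of 0.28. This scale averages the logs of the 3 Cd3 genes, and on it the p53-/- values of Gzma and Gzmb were above every p53+/+ value. With 0.1 CPM added in place of 0.5, the difference was 0.48 for Gzma, with libraries 8 and 10 level at 2.85, and 0.16 for Gzmb, under its spread of 0.30 and with library 8 at 2.08 above library 10 at 1.81. For Fasl it was -2.20 with a spread of 0.46. With 0.5 CPM added, the two-sided exact permutation test gave p = 0.333 for each of the 10 genes, the smallest that 2 against 2 libraries allow.

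**Figure D3:**
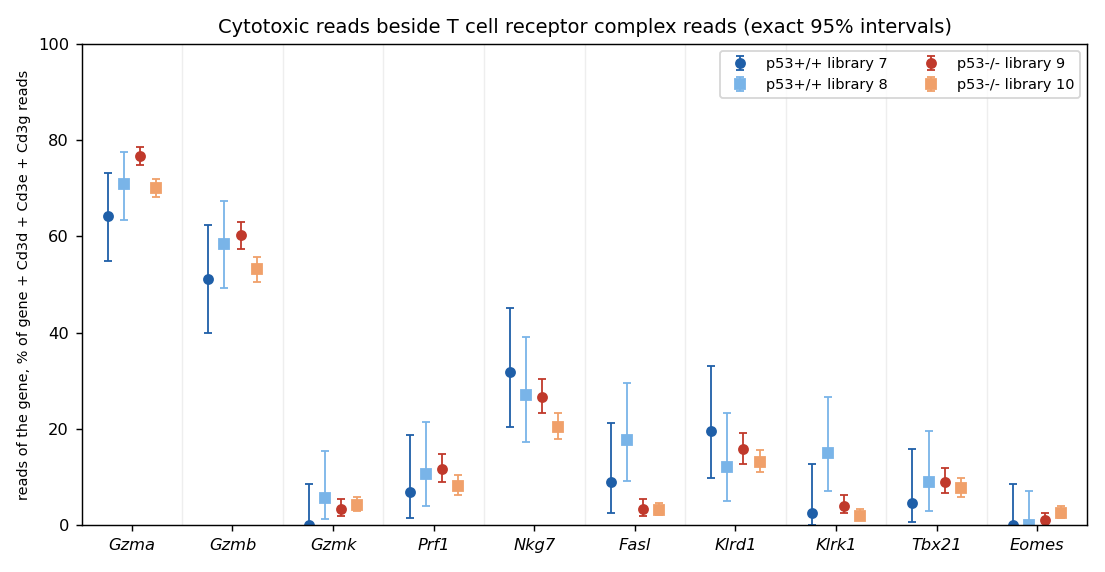
Reads of each gene as a percentage of its reads plus those of Cd3d, Cd3e and Cd3g, per library, with exact 95% binomial intervals that cover counting error only. For Gzma, Gzmb, Prf1 and Tbx21 the interval of p53+/+ library 8 contains the values of both p53-/- libraries. That of p53+/+ library 7 does so for Gzmb, Prf1 and Tbx21. For Gzma the interval of library 7, 54.9 to 73.1%, lies below library 9 at 76.7%. Fasl lies at 3.39% and 3.12% in p53-/- against 8.89% and 17.7% in p53+/+.

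The promoters of Gzma, Gzmb, Prf1 and Nkg7 are shown as reference sequence, because T-bet and Eomes bind T-box sites and Runx3, whose own transcript is described further on, binds RUNX sites. The promoters of 9 of the 10 genes, all but Klrd1, were found by symbol in RefSeq annotation of GRCm38.p6. The 250 bases before the start site were searched on both strands for the T-box core TCACACC (reverse GGTGTGA) and the RUNX core ACCACA (reverse TGTGGT), which do not overlap each other in these windows. A RUNX core was present in 5 of the 9, against 14.0% of 32851 promoters of this length, and a T-box core in 2 of the 9, against 3.33%. The promoters of Gzma, Gzmb, Prf1 and Nkg7, the granule genes that hold a RUNX core, read as follows from 5′ to 3′, with the matches in capitals.
Gzma, chr13:113100982-113101231, minus strand: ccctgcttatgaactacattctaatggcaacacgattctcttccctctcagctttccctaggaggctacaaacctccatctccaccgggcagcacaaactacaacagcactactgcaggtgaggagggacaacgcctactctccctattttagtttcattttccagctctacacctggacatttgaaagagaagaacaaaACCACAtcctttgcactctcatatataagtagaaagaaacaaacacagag
Gzmb, chr14:56262335-56262584, minus strand: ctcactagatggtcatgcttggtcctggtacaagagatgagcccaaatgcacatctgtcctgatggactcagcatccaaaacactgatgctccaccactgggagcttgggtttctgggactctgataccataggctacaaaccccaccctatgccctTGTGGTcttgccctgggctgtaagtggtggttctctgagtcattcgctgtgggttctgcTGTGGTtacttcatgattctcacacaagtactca
Prf1, chr10:61297586-61297835, plus strand: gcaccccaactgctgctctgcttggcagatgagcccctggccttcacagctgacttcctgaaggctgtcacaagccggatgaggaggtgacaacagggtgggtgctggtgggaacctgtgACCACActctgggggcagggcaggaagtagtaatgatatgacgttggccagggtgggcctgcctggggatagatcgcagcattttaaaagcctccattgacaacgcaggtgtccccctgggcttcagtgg
Nkg7, chr7:43436888-43437137, plus strand: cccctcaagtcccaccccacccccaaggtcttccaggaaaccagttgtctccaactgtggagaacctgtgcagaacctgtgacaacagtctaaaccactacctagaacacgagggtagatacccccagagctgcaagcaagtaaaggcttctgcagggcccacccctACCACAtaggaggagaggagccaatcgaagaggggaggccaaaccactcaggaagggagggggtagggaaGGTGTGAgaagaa
In Gzma the match ended 45 bases before the start site and in Prf1 125 bases before it. Gzmb held a pair of matches, whose last bases were 88 and 29 bases before the start. Nkg7 held a RUNX match ending 78 bases before the start and a T-box match ending 7 bases before it. The promoter of Gzmk held 1 match to the T-box core and none to the RUNX core, and that of Klrk1 held 1 match to the RUNX core. Those of Fasl, Eomes and Tbx21 held neither, and how the matches relate to the fold changes was not tested. A match of so few letters is a description of the sequence, and no binding was measured.

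Other genes of the same machinery showed a mixed picture. In these lists too, a gene with few p53+/+ counts was tested only if its p53-/- counts were enough. Their counts of genes and medians are therefore a description. Of the other granzymes, 5 of 7 had 0 counts in every library, and Gzmm, granzyme M, was at 0.309 and 0.324 CPM in p53+/+ and 0.789 and 0.796 CPM in p53-/- (log2 fold change 1.30 and, by edgeR quasi-likelihood, adjusted p = 0.367). Of 14 genes for granule loading, transport and release, edgeR's quasi-likelihood test called 0 and DESeq2 called 4 higher and 1 lower, and the median log2 fold change was 0.44. Without adjustment 6 were higher and 1 lower. Srgn, whose product serglycin packs granzymes, was at 1.92 and 4.93 CPM in p53+/+ and 18.4 and 49.4 CPM in p53-/-. Ctsw, cathepsin W of T and NK cells, was at 1.18 and 1.69 against 5.74 and 8.36 CPM. Ctsc, cathepsin C, the protease that activates granzymes in many cell types, was at 87.3 and 89.3 against 137 and 154 CPM, a log2 fold change of 0.72. Lamp1, a lysosomal protein of nearly all cells, lay the other way, at 951 and 749 against 540.0 and 547 CPM.

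Of 24 other NK and killer lectin-like receptor genes, 10 had enough counts to be tested and 13 had 0 counts in both p53+/+ libraries. edgeR's quasi-likelihood test called 0 (6 with an unadjusted p under 0.05, all higher) and DESeq2 called 2, and the median log2 fold change was 1.84, or 1.68 with Klre1, at 0 in p53+/+, set to its bound. Klrb1a, Klrb1c and Klre1, among others, reached the test only through the p53-/- libraries, where they were high. Ncr1, which encodes the NK cell receptor NKp46, had 0 and 0 counts in p53+/+ and 7 and 11 in p53-/-. Klrc1, which encodes NKG2A, the partner of CD94, had 0 and 0 against 9 and 11 counts. Klrb1a was at 0.0619 and 0.130 CPM against 0.657 and 1.19 CPM, and Klrb1 was nearly level, at 0.743 and 1.04 against 0.964 and 1.14 CPM. Reads of these receptor families could have been split among near-identical paralogs. Of 8 adaptor and signalling genes tested, 7 had a log2 fold change above 0 and edgeR's quasi-likelihood test called 0 (6 with an unadjusted p under 0.05), where DESeq2 called 4. Hcst, the adaptor DAP10 of NKG2D, was at 0.681 and 0.195 against 1.14 and 3.28 CPM. Cd247, the zeta chain of the T cell receptor complex, had the largest value of this list, a log2 fold change of 4.5, at 0.0619 and 0.324 against 2.32 and 6.62 CPM.

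Genes of the target cell side were mixed. Ulbp1, a ligand of NKG2D, was at 1.42 and 1.10 CPM in p53+/+ and 6.53 and 8.61 CPM in p53-/- (log2 fold change 2.58 and, by edgeR quasi-likelihood, adjusted p = 0.0836), and Raet1e, another ligand, was at 1.11 and 0.714 against 0.833 and 0.895 CPM. Of 8 death ligand and receptor genes tested, 4 lay above 0 and 4 below, with 0 called by edgeR's quasi-likelihood test (3 higher and 1 lower without adjustment), 2 called higher and 1 lower by DESeq2, and a median log2 fold change of 0.08. Tnfsf10, which encodes TRAIL, was at 26.4 and 16.8 against 105 and 76.7 CPM (edgeR adjusted p = 0.0578). Its receptor gene Tnfrsf10b, a p53 target, was at 25.2 and 27.1 against 7.19 and 7.01 CPM (edgeR adjusted p = 0.0510). Fas was at 12.4 and 15.2 against 21.1 and 31.2 CPM. Of the serpin genes, Serpinb9, whose product inhibits granzyme B, was at 1.36 and 7.53 against 7.93 and 14.0 CPM, with p53+/+ library 8 close to p53-/- library 9. Of 5 serpins tested, edgeR's quasi-likelihood test called 0 (3 higher and 1 lower without adjustment) and DESeq2 called 2 higher and 1 lower.

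Among effector cytokines and chemokines, Ccl5 was higher in p53-/-, the only 1 of 143 tested genes of the 20 other lists that passed the threshold of the quasi-likelihood test. Ccl5 encodes a chemokine made by cytotoxic and memory T cells. It was at 4.89 and 6.36 CPM in p53+/+ and 38.6 and 53.4 CPM in p53-/-, with a log2 fold change of 3.03 (SE 0.275 and edgeR adjusted p = 0.0296). Ccl4 was at 0.0619 and 0.195 against 1.40 and 1.89 CPM, and Ifng, the interferon of these cells, had 0 and 2 against 8 and 13 counts, too few for the test. Over the 143 genes, 85 had an unadjusted p under 0.05 and DESeq2 called 60. Without p53-/- library 10 the quasi-likelihood test called 0 of 144 genes (44 with an unadjusted p under 0.05).

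Of 17 transcription factor genes of lymphocyte lineages tested, 13 lay above 0 with a median log2 fold change of 0.84. edgeR's quasi-likelihood test called 0 (7 higher without adjustment) and DESeq2 called 5. Runx3, the RUNX factor of CD8+ lymphocytes, was at 0.681 and 1.69 CPM in p53+/+ and 6.84 and 14.6 CPM in p53-/- (log2 fold change 3.18 and, by edgeR quasi-likelihood, adjusted p = 0.110). Prdm1, which encodes Blimp-1, was at 11.1 and 14.5 against 30.4 and 23.5 CPM, and Id2 at 40.1 and 35.7 against 25.7 and 33.4 CPM. Both are also expressed in gut epithelium. Zbtb16, which encodes PLZF, had the lowest log2 fold change of the list, -1.68, at 2.72 and 11 against 2.81 and 1.44 CPM, with library 7 below library 9. Of 11 genes of driving cytokines and receptors tested, 9 lay above 0 (6 with an unadjusted p under 0.05), edgeR's quasi-likelihood test called 0 and DESeq2 called 3. Il15, which sustains CD8+ and NK cells in the gut, was at 20.6 and 14.3 against 12.4 and 9.75 CPM, and its receptor chain Il15ra at 5.69 and 4.41 against 12.6 and 8.56 CPM.

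Markers of the cells that may carry these transcripts lay higher in p53-/- as well. All 16 T cell markers lay above 0, with a median log2 fold change of 3.81, and a summed level of 11.6 and 19.7 CPM in p53+/+ against 103 and 212 CPM in p53-/-. edgeR's quasi-likelihood test called 0 of them (16 with an unadjusted p under 0.05), and DESeq2 called 15. Of 10 intraepithelial lymphocyte markers 8 lay above 0, with a median of 2.33, and their sum was 47.9 and 101 against 135 and 137 CPM. edgeR's quasi-likelihood test called 0 of them (7 with an unadjusted p under 0.05, all higher) and DESeq2 called 7. Itga1 and Jaml lay below 0, at -0.31 and -0.1. Itga1 made up much of the sum, with 16 and 65.3 against 38.5 and 27.2 CPM. Itgae, the integrin chain CD103 that holds lymphocytes at the epithelium, was at 2.78 and 5.58 against 22 and 19.3 CPM. B cell markers had a median of 9.99, or 6.73 with the 4 genes at 0 in p53+/+ set to their bound, and summed levels of 2.17 and 3.05 against 26.5 and 550.0 CPM. The summed level of B cell markers thus differed by 4.37 on the log2 scale between libraries 9 and 10, that of T cell markers by 1.05 and that of the 10 cytotoxic genes by 0.38. Gzma and Gzmb made up most of this last sum. Taken singly, the 10 genes ran from -0.26 for Klrk1 to 2.03 for Eomes. Without library 10 the medians were 2.84 for the cytotoxic genes, 3.08 for T cell, 5.56 for B cell and 0.86 for follicle and M cell markers.

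Macrophage markers had a median of 1.16 and summed levels of 173 and 255 against 289 and 368 CPM. Red blood cell markers summed to at most 5.97 CPM and neutrophil markers to at most 4.21 CPM in any library. Of 9 mast cell markers 6 had 0 counts in p53+/+, and Siglech, a marker of plasmacytoid dendritic cells, had 0 and 1 counts in p53+/+ against 6 and 65 in p53-/-. Both cell types can express Gzmb. All 7 epithelial markers lay below 0, with a median of -0.48 and summed levels of 20200 and 14700 against 13300 and 10900 CPM, and Cdx2 among them was at 533 and 338 against 231 and 204 CPM. These shifts and the 18S share moved with genotype beside the cytotoxic genes, and their part in the result was not tested. With Rn18s-rs5 left out, the median of the cytotoxic genes was 3.3, Gzma kept its call (edgeR adjusted p = 0.0411) and Gzmb lost it (edgeR adjusted p = 0.0577).

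**Figure D4:**
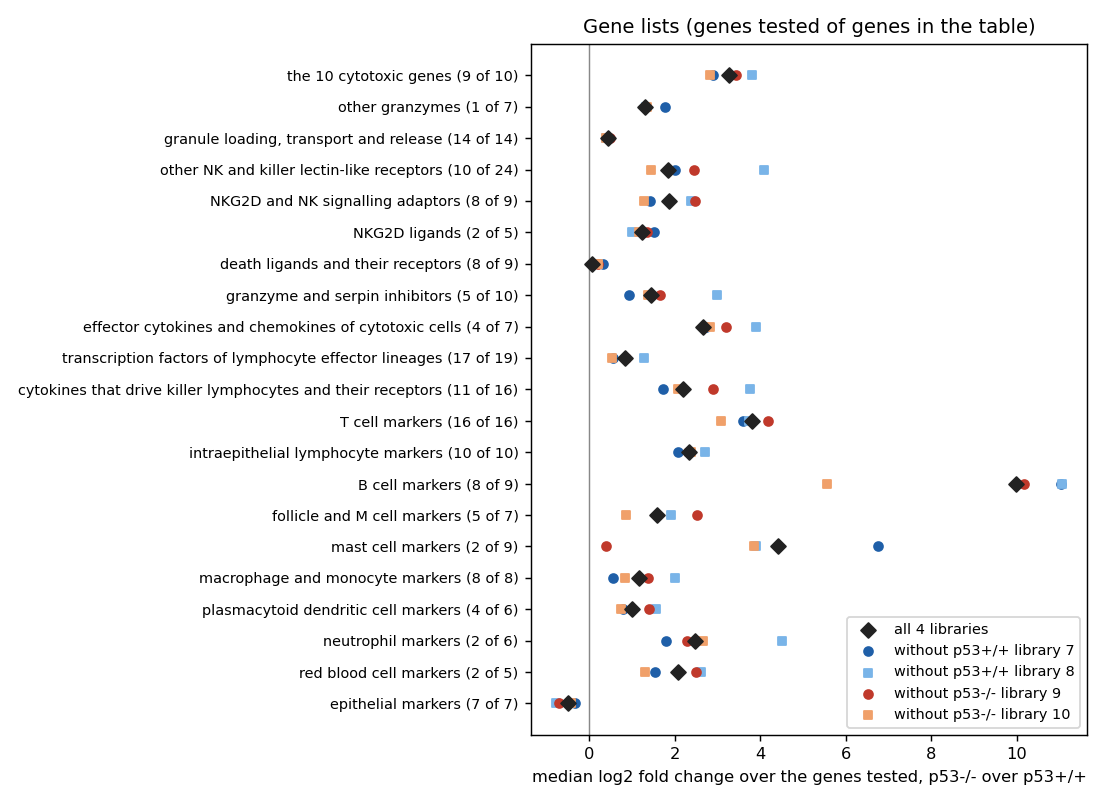
Median log2 fold change, p53-/- over p53+/+, of each gene list over the genes tested, with all 4 libraries (diamonds) and with each library left out. The cytotoxic genes, 9 of them tested, lie at 3.27 and T cell markers at 3.81 with all libraries, epithelial markers at -0.48, and B cell markers at 9.99, or 5.56 without library 10; fitted values of genes at 0 counts in p53+/+ depend on the prior count.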

How the data were processed

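Poly(A) RNA of the SI of p53+/+ and p53-/- mice was sequenced, with 2 libraries for each genotype, at 1 day post 12 Gy TBI. The values the authors deposited are unnormalized counts, 1 per gene and library. The submitters' processing notes name fastp, HISAT2 2.0.5, featureCounts 1.5.0-p3 and DESeq2 1.20.0. The genome build, the annotation and the use of strand are not given in the sources used here, and the library protocol allows for directional and non-directional kits. Reads shared by paralogs or overlapping genes could therefore have been split or dropped. Columns were mapped to genotypes by name.

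Counts were scaled by TMM, filtered with filterByExpr (at least 10 counts at the median library size in 2 libraries) and tested with edgeR 4.0.16 in R 4.3.3 (glmQLFit and glmQLFTest, genotype as the only term). Both genotypes entered 1 fit. The tests were tried on simulated counts. DESeq2 1.42.0 was an alternative. Standard errors were the log2 fold change divided by the root of the test statistic. SD values are over the 2 libraries of a genotype, which differed by more than counting noise (chi-square per degree of freedom 34.5 and 48.9) and were treated as separate samples. Exon lengths came from GENCODE M21, which matched 91.9% of the gene identifiers. Promoters came from RefSeq, GRCm38.p6, and the authors' coordinates were not used.

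The 10 genes, the 20 other lists and the tests were chosen with earlier results of these data known. From each other list the first 4 genes tested, those past the threshold and those with the largest rise and fall could be named. Ncr1, Klrc1, Ifng, Siglech, Cd8a, Mcpt2, Mcpt4, Cma1, Cpa3, Tpsab1, Tpsb2, Ms4a2 and the genes named in the ratios of reads were named after their values were seen. Alternatives were other scalings, filters, tests and thresholds, gene segments of immunoglobulins and T cell receptors or Rn18s-rs5 left out (the latter chosen after seeing the data), and each library left out. Of the marker lists, Vamp7, H60a, Raet1a, Raet1b and Raet1c had no row of that name.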

Additional observations from a re-analysis of the deposited data

How the results depend on the processing

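Each of the 9 cytotoxic genes kept its direction under every alternative that gave it a value, and the calls changed. At least 10 counts in every library gave a value for Gzma, Gzmb and Nkg7 alone. Against 48 genes higher and 31 lower, 2 cytotoxic genes and 1 gene of the other lists past the threshold, upper-quartile factors gave 29, 20 and 1 cytotoxic gene, library sizes alone 26, 20 and 0 (7 with an unadjusted p under 0.05), and at least 10 counts in every library, which tests fewer genes, 24, 18 and 1. Under DESeq2 they were 796, 647, 6 and 60, under the likelihood ratio test of edgeR 833, 462, 7 and 65, and no filter on low counts 1433, 761, 8 and 91, with 5.15% of all genes called higher there. Cytotoxic genes past the threshold fell to 1 with Rn18s-rs5 left out, and genes of the other lists rose to 5 without the segments of immunoglobulin and T cell receptor genes. An adjusted p under 0.01 gave 4, 2, 0 and 0, and under 0.1 it gave 238, 134, 4 and 24. Leaving out any 1 library, the counts ranged from 0 (without library 10) to 680 higher (without library 8), 0 to 344 lower (without libraries 10 and 8), 0 to 6 cytotoxic genes and 0 to 50 genes of the other lists, and the median of the cytotoxic genes from 2.84 to 3.81. A genotype left with 1 library was assumed to vary like the other. For the changes of tool and scaling, the cause was not tested. Over the alternatives, the adjusted p lay between 2.83e-43 and 0.306 for Gzma and between 7.41e-22 and 0.359 for Gzmb. Per T cell transcript, the median difference over the 10 genes was -0.62, and -0.31 with a pseudocount of 0.1 CPM, since 0.5 CPM is near the level of the rarer genes. The sign for these genes is not that of their reads. Eomes had a difference of -1.68, with 0 and 0 reads per 100 Cd3 reads in p53+/+ and 1.1 and 2.52 in p53-/-. Gzmk had -1.27, with 0 and 5.88 against 3.51 and 4.34 reads. By reads, only Nkg7 and Fasl were lower in both p53-/- libraries. Without a filter the median of all genes was 0.15. Depth limits Eomes, Gzmk, Klrk1, Fasl, Tbx21, Prf1 and Klrd1, which had 0 to 11 counts in each p53+/+ library. No paired analysis was possible because the columns carry none of the replicate numbers of the labels.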

Other observations

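The CD8 coreceptor genes differed in pattern. Cd8a, found in both conventional and intraepithelial CD8+ lymphocytes, had 25 and 53 counts in p53+/+ against 453 and 398 in p53-/-, while Cd8b1, the beta chain of conventional CD8+ T cells, had 0 and 0 against 44 and 90. Against 3 counts in each p53+/+ library, the mean of the p53-/- libraries for Cd8b1 was at least 16.8-fold higher (edgeR adjusted p = 0.0849). In the p53-/- libraries there were 10.3 and 4.42 Cd8a reads for each Cd8b1 read. Trdc, the constant region of the delta chain of gamma-delta T cells, had the smallest log2 fold change of the T cell markers, 1.73, at 0.743 and 0.779 CPM in p53+/+ and 2.15 and 2.93 CPM in p53-/-. Mcpt1 and Mcpt2, proteases of mucosal mast cells, had 0 counts in both p53+/+ libraries and 70 and 27, and 22 and 8, in p53-/- libraries 9 and 10. The other mast cell markers were mixed. Cma1 had 6 and 6 counts in p53+/+ against 0 and 1 in p53-/-, Tpsb2 had 19 and 2 against 9 and 0, and Kit, which other cells also express, had 215 and 427 against 658 and 541. Mcpt4, Cpa3 and Ms4a2 had 0 counts in p53+/+ and at most 2 in a p53-/- library, and Tpsab1 had 0 in every library.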
